A study of Mus musculus with 9 samples.

Results

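Runx1, Runx2 and Runx3 encode the DNA-binding subunits of the core-binding factors, and Cbfb encodes the subunit they share. The binding of CTCF, a zinc-finger protein that marks loop anchors and insulators, and of Rad21, a subunit of the cohesin ring, was examined at these 4 genes from ChIP-seq peak lists. For each gene, every peak overlapping the gene body or the 150 kb on either side (in mouse genome build mm9) was taken. The 4 windows held 324 of the 190262 peaks in the 5 lists: 64 of 42250 CTCF peaks in pre-B cells, 110 of 71080 CTCF peaks in pro-B cells cultured with IL7, 47 of 30488 Rad21 peaks in pre-B cells, 17 of 9701 in CD4-CD8- (DN) thymocytes and 86 of 36743 in CD4+CD8+ (DP) thymocytes.

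All cells came from C57BL/6 mice lacking RAG1 (for pre-B cells the labels give RAG-/-), so no antigen receptor gene could be rearranged in them. Pro-B cells from RAG1-/- bone marrow were kept in IL7 for 7 days, and pre-B cells came from the marrow of RAG-/-µ+ mice, whose rearranged IgM transgene carries the cells past the pro-B stage. Marrow donors were 6 to 14 weeks old and of both sexes. DN thymocytes were from Rag1-/- mice, and DP thymocytes from Rag1-/- mice with a rearranged TCRb transgene, all 4 to 8 weeks old. Both transgenes thus stand in for a rearrangement of the cells' own genes, and the number of animals behind each library was not given in the sources used here. Each antibody and cell type is 1 library. No replicate spread exists, no difference between cell types was tested, and intervals below are exact (Clopper-Pearson) 95% intervals that cover counting error only. A peak list holds no RNA, so the cell types could not be checked against marker genes. The depth of the libraries is unknown from these lists, which range from 9701 to 71080 peaks, so a site outside a list may still be bound. Scores were used only to rank peaks within a list, and a percentile is the percent of the peaks of the same list with a lower score. The CTCF and Rad21 peaks of pre-B cells were called against 1 shared input library, and no CTCF list of thymocytes was used here.

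Runx1 is needed for blood stem cells to form and for thymocyte development, Runx3 silences Cd4 in CD8 lineage cells, and Runx2 drives bone formation. Their proteins bind DNA through the Runt domain, and Cbfb, which does not touch DNA itself, raises that affinity. Each Runx gene is transcribed from a distal promoter (P1) and, farther into the gene, a proximal promoter (P2), and the proteins made from them differ at the N-terminus. Cbfb has a single start in the annotation. On mm9, Runx1 covers chr16:92601712-92826311 on the minus strand, with 129 kb between its promoters. Runx2 covers chr17:44632936-44951746 on the minus strand, across 2 annotated genes, with 78.0 kb between its promoters. Runx3 covers chr4:134676567-134733905 on the plus strand, with 31.8 kb between its promoters. Cbfb covers chr8:107694574-107741886 on the plus strand. Distances below run in the direction of transcription from the distal start, or from the single start of Cbfb, and negative distances lie upstream. They refer to the middle of a site, a site being a run of overlapping peaks from different lists.

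When all 5 lists were merged, the windows held 144 sites, of which 72 were called in 1 list (50%, 41.6 to 58.4, background 45.2% of the 83461 sites of the genome) and 15 in all 5 (10.4%, 5.95 to 16.6, background 10.3%). Runx3 had 6 of its 30 sites called in every list (20%, 7.71 to 38.6), Runx1 had 4 of 55, Cbfb had 3 of 35 and Runx2 had 2 of 24, and the background share lay inside the interval of each. Of the 15, 11 held a match with at most 2 mismatches to the 12-base CTCF consensus that the study derived de novo. The share over all sites called in 5 lists is not given here, and 57.9% of all DN Rad21 peaks held such a match. The sequences of the 11 are shown because they are the most broadly called anchor candidates of these genes. Each is read on the strand that carries the consensus, with its best match in capitals (1 of equally good matches at the Runx3 site at 30.0 kb) and 24 bases of mm9 sequence on either side.
Runx1 306 kb, chr16:92520234-92520293, minus strand: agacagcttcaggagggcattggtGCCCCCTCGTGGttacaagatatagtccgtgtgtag
Runx1 260 kb, chr16:92566092-92566151, minus strand: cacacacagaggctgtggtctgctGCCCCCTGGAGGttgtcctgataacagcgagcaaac
Runx1 128 kb, chr16:92699036-92699095, minus strand: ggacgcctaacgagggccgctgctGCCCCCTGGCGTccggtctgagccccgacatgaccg
Runx2 284 kb, chr17:44667124-44667183, minus strand: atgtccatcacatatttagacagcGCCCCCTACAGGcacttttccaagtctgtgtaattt
Runx3 -102 kb, chr4:134574129-134574188, minus strand: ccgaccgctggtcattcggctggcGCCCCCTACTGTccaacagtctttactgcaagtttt
Runx3 -53.5 kb, chr4:134622811-134622870, minus strand: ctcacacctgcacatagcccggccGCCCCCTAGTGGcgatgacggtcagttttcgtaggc
Runx3 30.0 kb, chr4:134706512-134706571, plus strand: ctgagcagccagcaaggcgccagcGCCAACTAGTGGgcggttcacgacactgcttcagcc
Runx3 99.2 kb, chr4:134775711-134775770, minus strand: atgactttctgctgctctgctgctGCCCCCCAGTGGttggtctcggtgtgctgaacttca
Runx3 198 kb, chr4:134874069-134874128, plus strand: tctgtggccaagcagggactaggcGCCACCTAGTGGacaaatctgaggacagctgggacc
Cbfb -49.7 kb, chr8:107645013-107645072, minus strand: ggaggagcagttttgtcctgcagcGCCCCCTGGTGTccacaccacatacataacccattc
Cbfb 89.0 kb, chr8:107783734-107783793, plus strand: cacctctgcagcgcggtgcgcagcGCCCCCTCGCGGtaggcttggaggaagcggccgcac

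The Runx1 sequence at 128 kb lies just upstream of the proximal promoter, and the Runx3 sequence at 30.0 kb lies in a similar place, just upstream of the Runx3 proximal promoter. Within the 4 windows, 32 of 64 pre-B CTCF peaks had a consensus match of at most 2 mismatches (50%, 37.2 to 62.8), against 48.3% of the whole list. In sequence of the same lengths 2000 bp beyond each peak of the list, 8.97% held such a match.

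**Figure D1:**
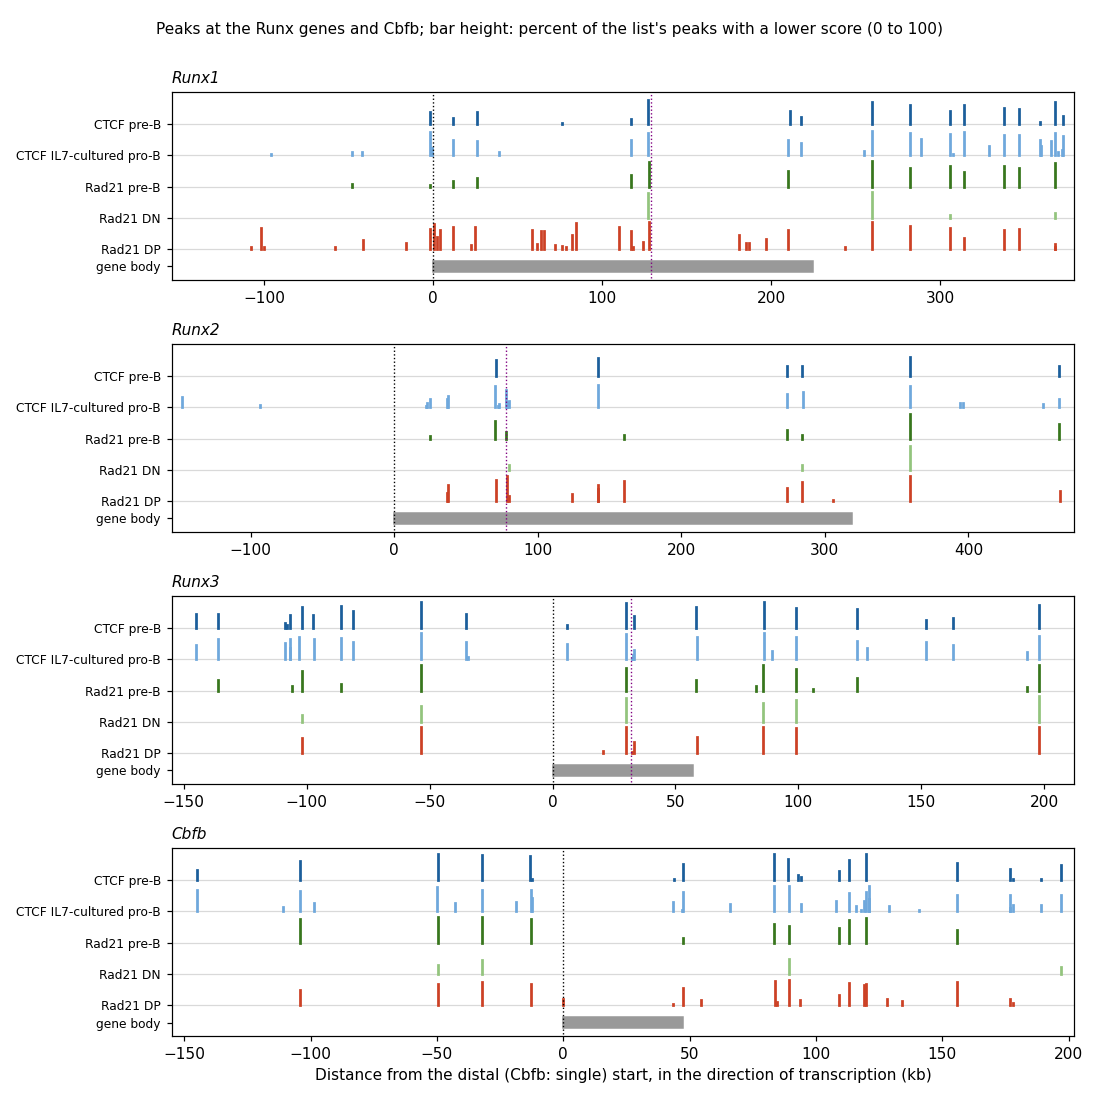
Peaks of the 5 lists at each gene, by distance in kb from the distal start (the single start for Cbfb). Each bar is 1 peak, its height is the percent of that list's peaks with a lower score, the gray bar is the gene body, and dotted lines mark the distal and proximal promoters. Of the 41 DP Rad21 peaks of the Runx1 window, 18 lie between its promoters and more than 1000 bp from a start, where pre-B cells have 3.

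Of the 4 windows, that of Runx1 had the widest range of Rad21 peak counts. It held 17 pre-B and 29 IL7-cultured pro-B CTCF peaks, and 14 Rad21 peaks in pre-B cells and 4 in DN thymocytes, but 41 in DP thymocytes. Per Mb of window, the DP Rad21 peaks came to 78.2, against 13.9 over the genome and a median of 23.1 over the windows of 22204 other protein-coding genes. Of those gene windows, 95.6% had a lower density of DP Rad21 peaks, 61.9% a lower density of pre-B and 59.2% a lower density of DN Rad21 peaks. By number, which favors long windows such as this one of 525 kb, 0.270% (60 windows) held as many DP Rad21 peaks, 18.7% as many pre-B and 27.9% as many DN Rad21 peaks. Windows of neighboring genes overlap, so these gene windows are not independent of each other. When each Rad21 list was limited to its 9701 highest-scoring peaks, the length of the DN list, the Runx1 window held 11 DP, 7 pre-B and 4 DN peaks. When the DP list was limited to 30488 peaks, the length of the pre-B list, it held 30 DP peaks beside the 14 of pre-B cells.

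**Figure D2:**
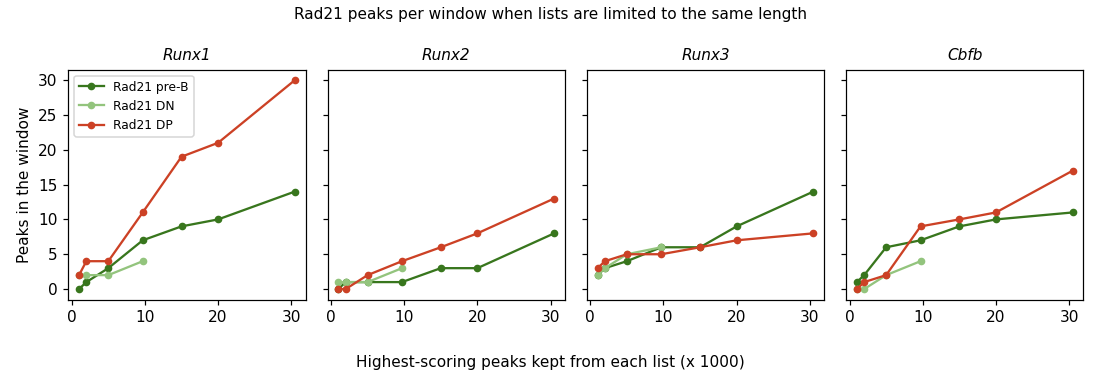
Number of Rad21 peaks in each window (y axis) when each list is limited to the same number of highest-scoring peaks (x axis, in units of 1000); lines join the values of 1 list. At Runx1 the DP line lies above the pre-B line at every length, from 2 against 0 peaks at 1000 to 30 against 14 at 30488, while at Runx3 the lines stay within 1 peak of each other up to 15000 and the DP line ends below, at 8 against 14.

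Rad21 peaks merged into 42 sites at Runx1. Of these, 28 were called in DP thymocytes and in neither other Rad21 list (66.7%, 50.5 to 80.4), whereas 33.6% of the 46478 Rad21 sites of the genome were. With all lists limited to 9701 peaks, 7 of 14 Runx1 sites were called in DP thymocytes alone (50%, 23.0 to 77.0), against 15.6% of all sites under that limit. Of these 7, 5 were also DP-only in the full lists. Runx1 had 4 sites in all 3 Rad21 lists (9.52%, 2.66 to 22.6, background 18.7%), 8 in pre-B and DP cells (19.0%, 8.60 to 34.1, background 25.1%) and 2 in pre-B cells alone (4.76%, 0.582 to 16.2, background 20.6%). No site was called in DN thymocytes alone or shared by DN and only 1 other list.

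**Figure D3:**
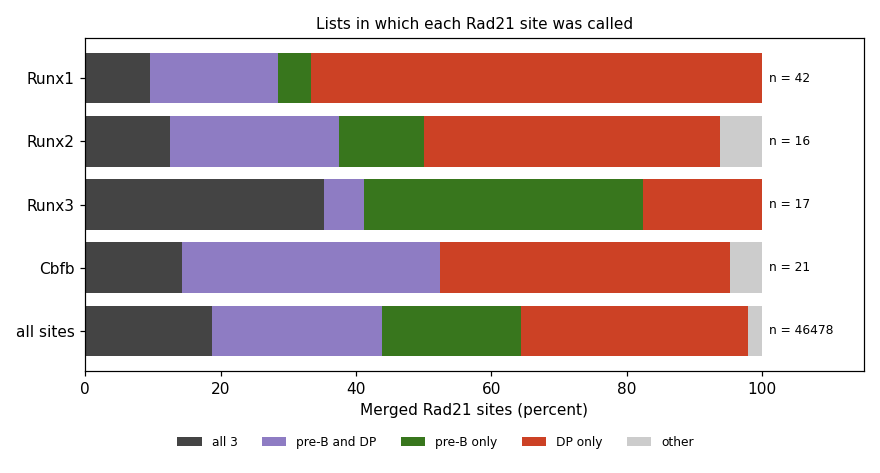
Share of merged Rad21 sites (x axis, percent) by the lists in which they were called, for each window and for all sites of the genome, with the number of sites at the right. DP-only sites made up 66.7% at Runx1 and 33.6% of all sites, and pre-B-only sites made up 41.2% at Runx3 and 0 at Cbfb.

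Most of these DP-only sites had no CTCF peak in either B-lineage list. At Runx1, 25 of the 28 had none (89.3%, 71.8 to 97.7), against 65.7% of the DP-only sites of the genome. At scores of at least 100 the count was 13 of 16 (81.2%, 54.4 to 96.0), against 64.3% of the genome's sites, and with all lists limited to 9701 peaks it was 6 of 7 (85.7%, 42.1 to 99.6), against 83.7%, so the higher share at Runx1 was not seen at equal list length. Of the 13 and the 6, 12 and 4 were DP-only sites without CTCF in the full lists as well. Over all Rad21 sites, 25 of 42 Runx1 sites lacked a B-lineage CTCF peak (59.5%, 43.3 to 74.4), against 27.1% in the genome, and all 25 were DP-only. The 14 Runx1 sites called in pre-B cells each had a B-lineage CTCF peak, as did 92.6% of such sites in the genome. Here and below, without CTCF means without a B-lineage CTCF peak. Whether the DP-only sites bind CTCF in thymocytes was not analysed here.

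The DP-only sites lay mainly within the first long intron of Runx1, between P1 and P2, a region known to harbor hematopoietic enhancers. Leaving out peaks within 1000 bp of a start, this 129 kb interval held 18 DP Rad21 peaks, or 140 per Mb, and 3 pre-B Rad21 peaks, or 23.3 per Mb. The 18 Rad21 sites there comprised 15 DP-only sites, 14 of them without a B-lineage CTCF peak. Limited to the 9701 highest-scoring peaks of each list, the interval kept 4 DP, 0 pre-B and 1 DN peaks. Of these DP peaks, that at 11.4 kb lay in a site also called in pre-B cells in the full lists. The cut at 1000 bp left out the pre-B Rad21 peak 510 bp from P2, at percentile 92.0, but kept the DN peak of the same site, 1308 bp from P2. Within the gene body as a whole, Runx1 had 18 DP-only sites without CTCF. Of 22204 other protein-coding gene bodies, 3 had as many (Gm20388, Arid1b and Clec16a, named after their values were seen), and of the 803 bodies at least as long as that of Runx1, 2 did, with a median count of 0.

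The strongest of these intron sites, chr16:92741514-92742186, lay 84.5 kb into the gene at percentile 96.2 of the DP list. The next were at 110 kb (percentile 82.4) and at 24.4 kb (percentile 80.7). Beyond these, sites at 4.01 and 58.3 kb reached percentiles 72.1 and 70.7, and a pair at 64.0 and 65.7 kb reached 66.7 and 66.9. A cluster of 9 DP-only sites ran from 58.3 to 84.5 kb, of which the site at 76.1 kb, at percentile 9.02, overlapped a weak pre-B CTCF peak at percentile 0.632. The 25 DP-only sites of the window without a B-lineage CTCF peak had a median percentile of 26.2 (range 0.103 to 96.2), beside 30.1 for the 10244 sites of that class in the genome. Of these 25, 10 stood in the upper part of the DP list, at percentile 50 or above (40.0%, 21.1 to 61.3), beside 25.4% of that class.

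Outside the interval, 4 such sites lay after P2, between 181 and 197 kb, the highest at percentile 53.7, and 5 lay upstream of P1. The site at -102 kb, chr16:92927691-92929016, was the strongest upstream at percentile 79.3. The remaining 2 lay in the downstream flank, at percentiles 4.03 and 0.103.

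**Figure D4:**
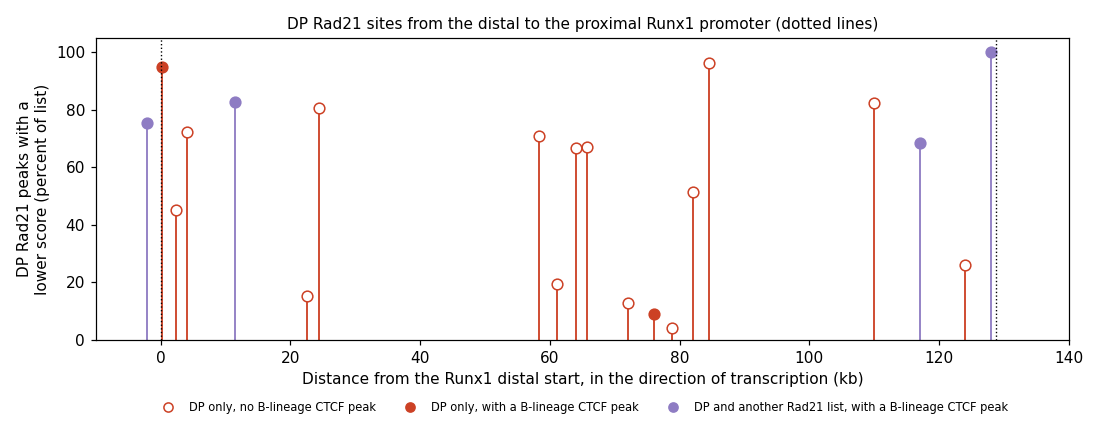
DP Rad21 sites from 10 kb upstream of the Runx1 distal start to just beyond the proximal start (dotted lines), by distance in kb (x axis) and percent of the DP list with a lower score (y axis). Open red circles are DP-only sites without a B-lineage CTCF peak, filled red circles DP-only sites with one, and purple circles sites also called in another Rad21 list, all with a B-lineage CTCF peak; the highest open circle is the site at 84.5 kb, percentile 96.2.

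The central 300 bases of 3 of these sites are shown as examples of Rad21 sites without a B-lineage CTCF peak. They are the strongest site, the strongest of those in the part of the intron nearer P1, and a site near P1 with matches to the core of the Runx motif (chosen after its sequence was read). They are read on the Runx1 strand (the minus strand of mm9), with capitals marking TGTGGT (the Runx core), CAGCTG (an E-box of the type bound by E proteins) and AGGAAG (an Ets core), each on either strand. The letters do not overlap one another.
Runx1 84.5 kb, chr16:92741700-92741999, minus strand: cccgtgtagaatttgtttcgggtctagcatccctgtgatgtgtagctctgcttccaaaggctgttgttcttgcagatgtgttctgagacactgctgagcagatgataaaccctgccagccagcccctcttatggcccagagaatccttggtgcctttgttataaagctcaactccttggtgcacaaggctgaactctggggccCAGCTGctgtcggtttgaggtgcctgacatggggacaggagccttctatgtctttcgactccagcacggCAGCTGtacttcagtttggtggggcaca
Runx1 24.4 kb, chr16:92801749-92802048, minus strand: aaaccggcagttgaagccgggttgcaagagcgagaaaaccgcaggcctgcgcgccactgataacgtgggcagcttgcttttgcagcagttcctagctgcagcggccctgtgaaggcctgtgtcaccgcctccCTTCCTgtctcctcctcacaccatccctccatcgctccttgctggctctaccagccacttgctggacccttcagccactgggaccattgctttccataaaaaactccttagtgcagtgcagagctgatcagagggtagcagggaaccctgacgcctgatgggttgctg
Runx1 4.01 kb, chr16:92822154-92822453, minus strand: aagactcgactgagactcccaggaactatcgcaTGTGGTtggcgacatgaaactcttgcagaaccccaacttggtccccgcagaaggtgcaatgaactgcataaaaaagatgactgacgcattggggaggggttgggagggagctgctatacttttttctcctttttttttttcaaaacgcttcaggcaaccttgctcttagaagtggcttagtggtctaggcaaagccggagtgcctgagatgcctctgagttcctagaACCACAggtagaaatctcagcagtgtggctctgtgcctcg

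The site at 4.01 kb held 2 matches to the Runx core, the site at 84.5 kb held 2 to the E-box, and the site at 24.4 kb held 1 Ets core. Among the 25 sites of this class at Runx1, the central 300 bases held TGTGGT in 8 (32.0%, 14.9 to 53.5), CAGCTG in 6 (24.0%, 9.36 to 45.1) and AGGAAG in 13 (52.0%, 31.3 to 72.2). Over the 10244 sites of this class in the genome the shares were 27.3%, 26.8% and 47.1%. All 3 genome shares lay inside the Runx1 intervals. In the 8663 sites of the genome called in all 3 Rad21 lists with a CTCF peak, they were 21.9%, 18.6% and 34.2%.

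Both Runx1 promoters were covered by broad DP Rad21 peaks. At P2, the DP peak chr16:92696860-92700640 spanned the most upstream proximal start and was 3781 bp wide, a width that 16 of the 36743 DP peaks reached or passed, against a median of 538 bp. Its score of 3100.00 was shared by 28 DP peaks and exceeded by 11. The other lists also had a peak here, but each lay upstream of the start. Rad21 in pre-B cells was called 510 bp upstream, at percentile 92.0, and in DN thymocytes 1308 bp upstream, at 91.7. CTCF was called 1081 bp upstream in pre-B cells, at percentile 91.8, where it was the highest CTCF peak of the Runx1 window, and 1028 bp upstream in IL7-cultured pro-B cells, at 84.4. The consensus match shown above lies in these peaks.

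At P1, Rad21 was called in DP thymocytes, where the peak chr16:92824790-92827441 covered the start, was 2652 bp wide (59 DP peaks were as wide or wider) and stood at percentile 94.8. The nearest DN Rad21 peak lay 126877 bp away, and the nearest pre-B Rad21 peak 1903 bp away at percentile 1.16. CTCF of IL7-cultured pro-B cells was called 817 bp from the start at percentile 26.8. A separate site at -2.15 kb, chr16:92828052-92828873, was called in 4 lists. There CTCF stood at percentile 46.1 in pre-B and 87.3 in IL7-cultured pro-B cells, and Rad21 at 1.16 in pre-B and 75.3 in DP cells, with no DN peak.

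The downstream flank of Runx1 held 19 sites, of which 7 had both CTCF and Rad21, 10 had CTCF only and 2 had DP Rad21 only. The site with the highest Rad21 peaks, chr16:92565659-92566610, lay 260 kb from P1, beyond the 3' end of the gene, and was called in all 5 lists. It stood at percentile 84.6 and 93.9 for CTCF of the pre-B and the IL7-cultured lists, and at 95, 98.5 and 99.9 for Rad21 in pre-B, DN and DP cells, and it was the highest DN peak of the window. A site in an intron of Clic6, a chloride channel family gene, at 306 kb was called in all 5 lists at percentiles between 11.5 (DN) and 79.8 (DP). A site in an intron of Rcan1, an inhibitor of calcineurin, at 368 kb was also called in all 5. It ranked high for CTCF (85.2 and 86.5) and for pre-B Rad21 (89.1), but low for Rad21 in DN (17.0) and DP (16.8) thymocytes.

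CTCF motifs at Runx1 shared 1 orientation. In the window, 8 pre-B CTCF peaks had a single best match within 2 mismatches, and in all 8 the forward form of the motif (the complement strand of the sequences printed above) read against transcription. These 8 ran from 373 kb to -2.09 kb, and 2 further peaks had tied best matches. In the whole pre-B list, 49.6% of 19490 peaks with a single best match read toward higher coordinates. At Runx2 both such peaks also read against transcription. Runx3 had 4 against and 5 with transcription, and Cbfb had 4 against and 5 with.

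**Figure D5:**
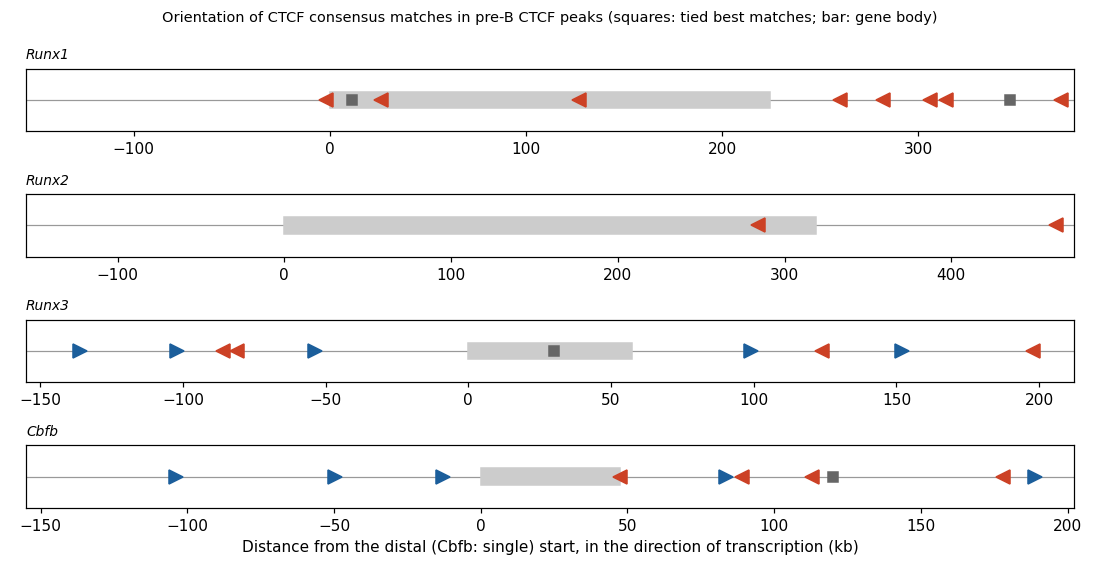
Orientation of the best CTCF consensus match (at most 2 mismatches) in each pre-B CTCF peak, by distance from the distal or single start in kb. Arrowheads give the reading direction of the forward motif relative to the gene (right, blue: with transcription; left, red: against), squares are tied matches and gray bars gene bodies; all 8 Runx1 arrowheads point left, and the 3 upstream of Cbfb point right.

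Per Mb of window, Runx2 had the lowest CTCF density of the 4 genes in both lists. Its window, 619 kb long, held 6 pre-B CTCF peaks, 9.70 per Mb against 16.0 over the genome, and 19.3% of gene windows had a lower density. It held 21 CTCF peaks of IL7-cultured pro-B cells (33.9 per Mb against 26.9 over the genome and a gene-window median of 49.1), and 34.7% of gene windows were less dense. Of these 21, 14 lay in the gene body, 43.9 per Mb of it, beside 31.2 in the body of Runx1. All 6 pre-B CTCF peaks were overlapped by an IL7-cultured pro-B peak (background 96.0%), but 6 of the 21 IL7-cultured pro-B peaks (28.6%, 11.3 to 52.2) were overlapped by a pre-B peak, against 58.6% of that list. Rad21 was called in 8, 3 and 14 peaks in pre-B, DN and DP cells.

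At the Runx2 distal promoter, which serves bone-forming cells, no peak lay within 1000 bp in any list. The nearest were a CTCF peak of IL7-cultured pro-B cells at 22014 bp (percentile 2.95) and a pre-B Rad21 peak at 24674 bp (percentile 11.0). At the proximal promoter, in contrast, the DP Rad21 peak chr17:44872176-44873554 covered a start at percentile 93.2 and was 1379 bp wide. CTCF of IL7-cultured pro-B cells, at percentile 67.1, and Rad21 of pre-B cells, at 25.1, covered the most upstream proximal start, just beyond the edge of that DP peak. No pre-B CTCF peak lay nearer than 7011 bp. The adjoining site chr17:44871330-44872099 was called for DN Rad21 (percentile 18.3), DP Rad21 (17.5) and IL7-cultured pro-B CTCF (22.6), and was the one Rad21 site of the 4 windows called in both thymocyte lists and not in pre-B cells.

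Elsewhere at Runx2, the strongest site for Rad21 lay in the downstream flank at 359 kb, chr17:44592390-44593341, with percentiles of 93.8, 90.6 and 94.4 in pre-B, DN and DP cells and 74.7 and 81.9 for CTCF of the pre-B and the IL7-cultured lists. The other site in all 5 lists lay in the gene at 284 kb, where DP Rad21 stood at percentile 69.3, and pre-B and DN Rad21 at 12.0 and 16.0. The highest IL7-cultured pro-B CTCF peak, at 142 kb (percentile 84.7), had a pre-B CTCF peak (67.6) and a DP Rad21 peak (57.7), but no pre-B or DN Rad21 peak. Between the promoters, the site at 70.7 kb was called in 4 lists at percentiles between 60.9 and 80.0. Of the 16 Rad21 sites, 7 were DP-only (43.8%, 19.8 to 70.1, background 33.6%) and 4 lacked a B-lineage CTCF peak (25.0%, 7.27 to 52.4, background 27.1%), both near the share over the genome. The strongest of the 4 sites without CTCF, at 160 kb, was called in DP thymocytes at percentile 74.5 and in pre-B cells at 15.3. The other 3, at 464, 124 and 306 kb, were DP-only, at percentiles 36.7, 26.9 and 0.716. With all lists limited to 9701 peaks, 0 of the 7 DP-only sites were left, and 3 sites whose pre-B peaks fell outside the limit became DP-only.

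The 357 kb window of Runx3 held 21 pre-B CTCF peaks (58.8 per Mb, with 83.6% of gene windows less dense), 27 of IL7-cultured pro-B cells, and 14, 6 and 10 Rad21 peaks in pre-B, DN and DP cells. The order of pre-B and DP depended on list length, with 4 pre-B against 5 DP peaks among the 5000 highest of each list, 6 against 5 among 9701, 6 against 6 among 15000 and 14 against 8 among 30488. Its 6 DN Rad21 peaks, 16.8 per Mb against 3.68 over the genome, exceeded the density of 91.1% of gene windows, and each was overlapped by a DP Rad21 peak, as were 94.5% of all DN peaks. Of 17 Rad21 sites, 6 were called in all 3 lists (35.3%, 14.2 to 61.7, background 18.7%), 7 in pre-B cells alone (41.2%, 18.4 to 67.1, background 20.6%) and 3 in DP thymocytes alone (17.6%, 3.80 to 43.4, background 33.6%). All 3 background shares lay inside the Runx3 intervals, whereas that of DP-only sites lay below the interval at Runx1. A test of the difference between these genes was not run, since each count comes from 1 library.

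The highest CTCF and pre-B Rad21 peaks of the Runx3 window lay in 2 sites that flanked the gene. At -53.5 kb, chr4:134622411-134623641 stood at percentiles 99.7 and 99.3 for CTCF of the pre-B and the IL7-cultured lists, and at 98.0, 60.7 and 97.6 for Rad21 in pre-B, DN and DP cells. It holds the single sequence above that matched the consensus with 0 mismatches. At 85.7 kb, beyond the 3' end of the gene, chr4:134761609-134762999 stood at 98.7 and 99.9 for CTCF and at 98.4, 71.4 and 97.3 for Rad21. Farther out, sites at 99.2 kb, in an intron of Clic4, a chloride channel family gene like Clic6 at Runx1, and at 198 kb were also called in all 5 lists. The latter was the highest DN Rad21 peak of the window, at percentile 98.8, and stood between 86.6 and 95.8 in the other lists. The sixth site in all 5 lists, at -102 kb, stood at 80.5 and 85.4 for CTCF but at 25.3 for DN Rad21.

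The upstream flank of Runx3 held 11 pre-B CTCF peaks but 5 Rad21 peaks in pre-B cells and 2 in each thymocyte list. At -136, -107 and -86.1 kb, Rad21 was called in pre-B cells alone, at percentiles 39.7, 19.1 and 25.8. At -145, -109, -108, -97.3, -81.2 and -35.3 kb, both CTCF lists had a peak and no Rad21 list did. Over the window, 11 of the 21 pre-B CTCF peaks were overlapped by a pre-B Rad21 peak (52.4%, 29.8 to 74.3) and 8 by a DP Rad21 peak (38.1%, 18.1 to 61.6), against 63.5% and 52.0% of the whole list, both inside these intervals. Over the 4 windows together, 41 of 64 pre-B CTCF peaks were overlapped by a pre-B Rad21 peak (64.1%, 51.1 to 75.7) and 62 by an IL7-cultured pro-B CTCF peak (96.9%, 89.2 to 99.6), against 96.0%.

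The Runx3 promoters differed from those of Runx1. No list had a peak within 1000 bp of the distal start, the nearest being CTCF peaks at 5747 bp (IL7-cultured pro-B, percentile 56.8) and 5780 bp (pre-B, 14.5), and the nearest Rad21 peak, of DP thymocytes, lay 20367 bp away. Upstream of the proximal start, the site chr4:134706138-134707015 was called in all 5 lists, at percentiles 95.2 and 97.7 for CTCF and 84.4, 89.9 and 98.2 for Rad21 in pre-B, DN and DP cells, and was the highest DP Rad21 peak of the window. Its Rad21 peaks ended 1419 bp from the start in pre-B cells and 1525 bp in DN thymocytes. Within 1000 bp of the start, DP Rad21 was called once, at percentile 2.07, and CTCF once in pre-B cells (45.1) and in 2 peaks in IL7-cultured pro-B cells. Without a B-lineage CTCF peak were 4 Rad21 sites at Runx3, 1 in DP thymocytes at 20.5 kb (percentile 5.07) and 3 in pre-B cells at 82.7, 106 and 193 kb (15.6, 4.00 and 14.2).

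Most of the Cbfb window, and with it most of its peaks, lay outside the gene itself. The 347 kb window held 20 pre-B CTCF peaks, 33 of IL7-cultured pro-B cells (95 per Mb, with 86.8% of gene windows less dense), and 11, 4 and 21 Rad21 peaks in pre-B, DN and DP cells. The gene body of 47.3 kb overlapped 2, 3, 1, 0 and 2 of them, in that order. At the Cbfb start, the DP list alone had a peak within 1000 bp, chr8:107694250-107694533, at percentile 22.0 and without a B-lineage CTCF peak. The nearest CTCF peaks lay 12220 and 12141 bp away, and the nearest pre-B Rad21 peak 12236 bp, all in 1 site at -12.8 kb where CTCF and pre-B Rad21 reached percentiles 91.0, 81.0 and 88.0.

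Of the 32 flanking sites at Cbfb, 15 had both CTCF and Rad21, 13 had CTCF only and 4 had DP Rad21 only. The site at -49.7 kb, chr8:107644271-107645470, was the highest Rad21 peak of the window in pre-B cells (percentile 97.3) and stood at 80.3 in DP and 32.8 in DN thymocytes, with CTCF at 98.5 and 91.9. A site in an intron of Ces4a, a carboxylesterase gene, at -32.1 kb was called in all 5 lists, with pre-B Rad21 at 95, DP at 85.6 and DN at 53.3. Downstream, a site at 89.0 kb lay in Tradd, which encodes the adaptor of tumor necrosis factor receptor 1. Its Rad21 peaks were centered in a coding exon and lay 153 to 639 bp from the Tradd start. The site was the highest Rad21 peak in DP thymocytes (95.4) and DN thymocytes (56.1) and stood at 61.8 in pre-B cells. The highest pre-B CTCF peak (99.1) lay at B3gnt9-ps at 83.5 kb, and the next (98.9) in an intron of Exoc3l at 120 kb. Both had pre-B and DP Rad21 but no DN Rad21 peak. The 3 upstream CTCF motifs with a single best match read with transcription and the match at 47.4 kb, just past the 3' end, read against it, so that these motifs faced each other across Cbfb.

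Of 21 Rad21 sites at Cbfb, 8 were called in pre-B and DP cells (38.1%, 18.1 to 61.6, background 25.1%) and 9 in DP thymocytes alone (42.9%, 21.8 to 66.0, background 33.6%), with both background shares inside the intervals. Of the 9, 5 lacked a B-lineage CTCF peak, beside 65.7% of DP-only sites in the genome. At scores of at least 100, and again with all lists limited to 9701 peaks, 0 of the 9 were left and 1 other site became DP-only. These 5 ranked low, between percentiles 10.7 and 23.3. They comprised the peak at the start, 1 in D230025D16Rik, 1 in B3gnt9-ps and 2 in E2f4, a repressor of cell cycle genes. No Rad21 site was called in pre-B cells alone (0 of 21, upper bound 16.1%, background 20.6%), and 1, in Slc9a5, was called in DN thymocytes alone (4.76%, 0.12 to 23.8, background 0.310%).

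DP thymocytes had a Rad21 peak within 1000 bp of at least 1 start of every gene, whereas pre-B Rad21 did at 2 genes, DN Rad21 at 1, pre-B CTCF at 1 and IL7-cultured pro-B CTCF at 3. Among all 22095 protein-coding genes with a start tested, 31.4% had a DP Rad21 peak this near, 18.6% a pre-B Rad21 peak, 3.58% a DN Rad21 peak, 24.3% a pre-B CTCF peak and 36.2% an IL7-cultured pro-B CTCF peak. These shares were not matched for the number of starts, and each Runx gene has more than 1.

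Partners of the Runx proteins were examined in the same way. The 11 genes were the Groucho corepressors Tle1, Tle3 and Tle4, the corepressors Cbfa2t2, Cbfa2t3 and Runx1t1 (known for its fusion to RUNX1 in leukemia), the scaffold Sin3a, the acetyltransferases Ep300 and Kat6a, the kinase Hipk2 and the transcription factor Ets1. A DP Rad21 peak lay within 1000 bp of a coding start in 9 of 11, a pre-B Rad21 peak in 5, a DN Rad21 peak in 2, a pre-B CTCF peak in 6 and an IL7-cultured pro-B CTCF peak in 9. Each count lay above the share for all genes, but the list is short and was not tested. The highest DP Rad21 peaks stood at Cbfa2t3 (percentile 98.5), Ets1 (98.0) and Tle3 (90.3). Of these, Ets1 had a pre-B Rad21 peak at percentile 41.5 and no pre-B CTCF peak, and Cbfa2t3 had peaks in all 5 lists, as did Tle1. Runx1t1 had no peak in any list.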

How the data were processed

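The deposited files are 5 lists of peaks, each with a position and a score that the authors' peak caller gave. Per the labels and the study's methods, single-end reads were mapped to mm9 with Bowtie, keeping reads with up to 3 locations, duplicates were removed, and peaks were called against input with MACS 1.4.2. The submitters' processing notes name Bowtie 0.12.9, and the methods name another version. No replicates were pooled.

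The members and lists were chosen with earlier results of these data known. Positions were compared with the GENCODE vM1 annotation on NCBIM37, which is mm9. Peaks overlapping by at least 1 bp were merged into sites. Promoters were clusters of coding starts told apart by the N-terminus they encode, with a reach of 1000 bp. The CTCF consensus was searched on both strands with up to 2 mismatches. Motif letters were chosen after the lists were seen. Densities used the 19 autosomes and X. Named peaks were mainly chosen from those at promoters, the 3 highest of each list per window, sites in all 5 lists and Rad21 sites without CTCF. Not every peak of these kinds was named, and some other sites, such as those in the upstream flank of Runx3, were named as well. Kat6a was found in the annotation under an older symbol. Alternatives changed the score threshold, list length, overlap, window, promoter reach and mismatches. Merging, overlap and motif search were tested on simulated data. Python 3.11.15, numpy 2.4.6, scipy 1.17.1 and pysam 0.24.0 were used.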

Additional observations from a re-analysis of the deposited data

How the results depend on the processing

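Of 114 values recomputed under alternatives, 86 moved by less than 1.5 times (counts) or stayed inside their interval (shares), and 28 did not. The alternatives for DP-only sites and the DN list left out were added after seeing the data. The cause of each move was not tested beyond what the alternative itself removes.

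With every list limited to its 9701 highest-scoring peaks, the 4 windows held 16 CTCF peaks in pre-B cells, 12 in IL7-cultured pro-B cells, and 21 and 29 Rad21 peaks in pre-B and DP cells, merging to 18 CTCF and 36 Rad21 sites. Pre-B CTCF peaks were then overlapped by pre-B Rad21 in 81.2% and by IL7-cultured pro-B CTCF in 62.5%, 30.6% of Rad21 sites were called in all 3 lists, and 58.3% had no B-lineage CTCF peak. DP-only sites then numbered 7 at Runx1 (50% of its sites, 6 without CTCF), 3 at Runx2, 0 at Runx3 and 1 at Cbfb. With scores of at least 100, 55 DP Rad21 peaks and 61 Rad21 sites were counted, 26.2% of them without CTCF, and DP-only sites came to 16 at Runx1 (13 without CTCF), 1 at Runx3 and 1 at Cbfb. Some of these became DP-only through the limit, and 5 of the 7 and 14 of the 16 at Runx1 were DP-only in the full lists. Flanks of 200 kb gave 6 DP-only sites at Runx3. Of promoter peaks, 16 within 1000 bp became 31 within 2500 bp and 7 within 250 bp. A consensus match was found in 21.9% of pre-B CTCF peaks at 1 mismatch and in 87.5% at 3.

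Each value rests on 1 library, and low-ranking calls, which make up most DP-only sites, depend most on the threshold.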

Other observations

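Other genes whose windows held the most similar 5 counts of peaks (smallest sum of absolute differences over the 5 lists, on other chromosomes) were N4bp2, Pitpnm2 and Srebf1 for Runx1, with sums of 4, 7 and 8. For Runx2 they were Jak2, Cdk6 and Smg1 (2, 5 and 5), for Runx3 Sort1, Cd151 and Polr2l (1, 2 and 2), and for Cbfb Gm996, Phpt1 and Gabpb2 (2, 2 and 3). Around N4bp2, 41 DP and 18 pre-B Rad21 peaks were called, beside 41 and 14 around Runx1. These are descriptions over 5 libraries, with no test.

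CTCF sites called in both B-lineage lists more often had a Rad21 peak of any list than sites called in IL7-cultured pro-B cells alone. Over the 4 windows these shares were 48 of 62 (77.4%, 65.0 to 87.1) and 10 of 44 (22.7%, 11.5 to 37.8), and over the genome 71.9% and 14.5%. At Cbfb, 17 of 19 shared CTCF sites had Rad21 and 0 of 11 IL7-cultured pro-B sites did (upper bound 28.5%). At Runx3, 12 of 21 shared sites did (57.1%, 34.0 to 78.2). No Rad21 list of IL7-cultured pro-B cells was used here, so sites called in those cells alone were compared with Rad21 of other cells. For the shared sites, the Rad21 lists included that of pre-B cells, in which these sites were called. Whether the sites of IL7-cultured pro-B cells bind Rad21 in those cells was not tested. The pre-B CTCF and Rad21 lists share an input, and whether that bears on the shares above was not tested.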
